A study of Mus musculus with 6 samples.

Results

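The 10 genes described here encode negative regulators of mitogen-activated protein (MAP) kinase signalling. They are the dual-specificity phosphatases Dusp1, Dusp2, Dusp4, Dusp5, Dusp6, Dusp7 and Dusp10, the Sprouty genes Spry1 and Spry2, and Spred1. They were taken by name from the platform annotation, with every probe set of each gene. This gave 21 probe sets among 45037 other than array controls, and all 10 genes were among the 11625 measured. The arrays held RNA of megakaryocyte progenitors (MkP), the blood precursors of megakaryocytes and platelets. There were 3 arrays of fetal liver MkP, taken at E13.5, and 3 arrays of bone marrow MkP, taken from adult mice aged 12 to 18 weeks. All mice were wild type C57BL/6, and the labels name no drug or other treatment for either group. The cells of both tissues were sorted as lineage-negative and Sca-1-negative cells that carry c-kit, CD150 and CD41. The labels name the samples biological replicates without a number of animals or embryos, so the p-values measure the spread between these samples. Organ and age change together between the groups, and their parts in a difference cannot be told apart.

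MAP kinase cascades carry signals of growth factors, cytokines and stress from the cell surface to the nucleus. In the ERK branch a receptor such as KIT activates RAS, which starts a kinase chain that ends in ERK. The p38 and JNK branches answer mainly to stress and inflammatory signals. Active MAP kinases switch on genes that then restrain the same pathway. Dual-specificity phosphatases remove the activating phosphates from the kinases themselves, whereas Sprouty and Spred proteins act upstream, at the level of receptors, RAS and RAF. Transcripts of several of these regulators are therefore used as readouts of pathway output. In megakaryocytes, ERK signalling is known to promote differentiation.

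In fetal liver MkP, 3 of the 10 genes fell relative to bone marrow MkP, and 0 rose. These were Dusp6, the cytoplasmic phosphatase that is selective for ERK, Dusp1, a nuclear phosphatase of p38, JNK and ERK, and Spry2. Their changes, fetal liver minus bone marrow, were -4.61, -2.61 and -1.90 on the log2 scale. The call of Spry2 is the least firm of these: it was lost in 7 of 18 alternatives, among them 5 of the 6 that leave out an array, and its change was -0.16 (adjusted p = 0.92) with the mean of its 2 probe sets. The other 7 genes were not past the threshold of 0.05 on the adjusted p (limma, Benjamini-Hochberg over 11625 genes). At an unadjusted p under 0.05 the counts in the same fit were unchanged, 3 lower and 0 higher. The share of all genes at that unadjusted p is not given here, so these counts cannot be set against it. Over all genes, 4.76% were past the threshold on the adjusted p and lower in fetal liver. A further 3.01% were past it and higher, 7.77% in all. The median change of the 10 genes was -0.46, against 0.01 over all genes. Fewer cells of a type and less RNA per cell cannot be told apart in these bulk samples.

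**Figure D1:**
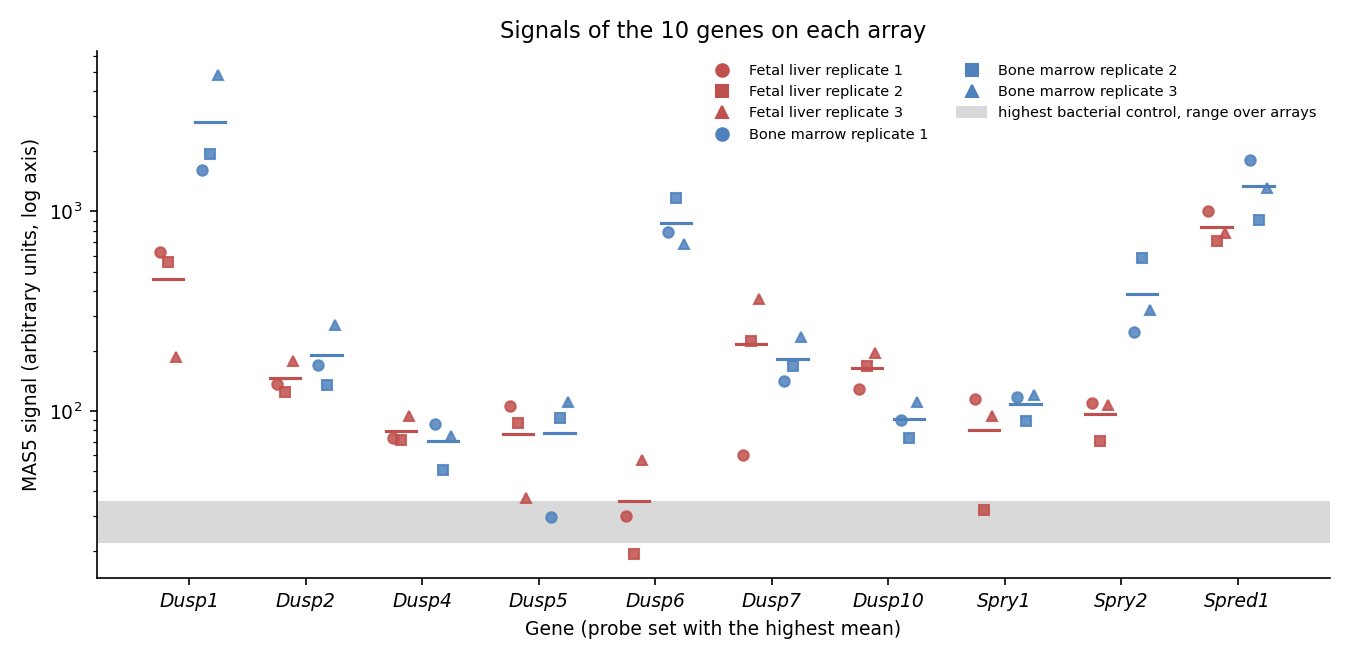
MAS5 signal (log axis) of the 10 genes on each array, for the probe set with the highest mean of each gene. Red points are fetal liver arrays, blue points bone marrow arrays, symbols mark the replicate, bars are group means, and the grey band spans the highest bacterial control signal of the 6 arrays, 22.2 to 35.1. Dusp1, Dusp6 and Spry2 have every fetal liver array below every bone marrow array, and Dusp6 in fetal liver lies in or near the grey band.

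Upstream sequences of the 3 genes that fell are printed with that of Dusp5, which did not pass the threshold, because the first and last of them hold named elements for factors downstream of MAP kinases. Of the 10 genes, 9 had an entry in the RefSeq promoter table (GRCm38.p6). Each run below is the 250 bases before the annotated start, 5′ to 3′ on the strand of the gene, and capitals mark matches to a searched motif. The Dusp1 sequence is chr17:26508473-26508722 on the minus strand, and those of Dusp6 (chr10:99262981-99263230, plus strand), Spry2 (chr14:105896820-105897069, minus strand) and Dusp5 (chr19:53528895-53529144, plus strand) follow it.
Dusp1: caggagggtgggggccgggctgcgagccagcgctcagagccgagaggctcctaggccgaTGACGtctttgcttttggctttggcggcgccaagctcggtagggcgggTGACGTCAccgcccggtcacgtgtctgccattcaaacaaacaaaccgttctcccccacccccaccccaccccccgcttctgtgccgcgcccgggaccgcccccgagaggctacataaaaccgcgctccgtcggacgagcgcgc
Dusp6: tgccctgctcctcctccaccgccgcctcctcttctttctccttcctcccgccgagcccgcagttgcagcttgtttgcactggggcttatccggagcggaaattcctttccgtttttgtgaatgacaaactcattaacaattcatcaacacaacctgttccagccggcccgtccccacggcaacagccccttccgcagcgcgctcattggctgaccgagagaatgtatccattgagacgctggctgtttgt
Spry2: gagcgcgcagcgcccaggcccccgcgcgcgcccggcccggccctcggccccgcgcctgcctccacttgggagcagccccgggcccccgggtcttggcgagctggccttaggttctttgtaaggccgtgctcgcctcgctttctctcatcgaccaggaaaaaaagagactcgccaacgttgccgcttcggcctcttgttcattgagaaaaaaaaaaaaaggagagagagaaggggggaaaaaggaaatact
Dusp5: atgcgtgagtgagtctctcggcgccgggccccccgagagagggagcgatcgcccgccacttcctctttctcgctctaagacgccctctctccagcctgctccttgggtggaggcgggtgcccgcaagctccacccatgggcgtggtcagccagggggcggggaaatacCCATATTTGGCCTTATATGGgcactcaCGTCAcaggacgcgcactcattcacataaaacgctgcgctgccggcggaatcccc

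The motifs, searched on both strands, were the cyclic AMP response element (CRE) TGACGTCA, its shorter core TGACG, which lies within it, the AP-1 site TGANTCA, the ETS site CCGGAAG and the serum response element. The Dusp1 run held a full CRE from 143 to 136 bases before the start and a further core from 191 to 187 bases before it. The Dusp5 run held 2 adjoining serum response elements, CCATATTTGG and CCTTATATGG, from 82 to 63 bases before the start, and a core of the CRE from 55 to 51 bases before it. The Dusp6 and Spry2 runs held none of these letters, nor did those of the other 5 genes of the set with an entry. Among 32851 promoters of the same length, 1.55% held the full CRE, 17.8% its core, 6.75% the AP-1 site, 6.91% the ETS site and 1.47% the serum response element. The runs of the 9 genes held 56.4% to 77.2% G and C bases (median 64%), against a median of 52.4% over all promoters. The motif shares were not matched for that content. Of the 3 genes that fell, Dusp1 alone carried a searched element within these 250 bases. A match is a description of the letters and not of binding.

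Among the cytoplasmic phosphatases of ERK, Dusp6 gave the largest change of the 10 genes. Its signals were 29.9, 19.3 and 57.0 in fetal liver MkP, against 785, 1171 and 684 in bone marrow MkP. All 3 fetal liver arrays lay far below all 3 bone marrow arrays. The log2 change was -4.61 ± 0.50 (SE, adjusted p = 4.98e-04), which is a 24.5-fold higher level in bone marrow on the log2(signal + 2.87) scale. In fetal liver, replicate 3 alone was above the highest bacterial control signal of its array, the level used here as background, and replicates 1 and 2 were not. The size of the change is therefore less certain than its direction, and it was -4.15 with an offset of 16 and -4.40 with dim signals raised to the background. The call held in all 18 alternatives run, among them each array left out in turn, with an adjusted p between 2.07e-04 and 0.00371.

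Dusp7, the close relative of Dusp6 that also acts on ERK in the cytoplasm, did not pass the threshold. The probe set with the highest mean had signals of 60.4, 224 and 365 in fetal liver MkP, against 142, 169 and 234 in bone marrow MkP. The fetal liver values thus ran from below to above all bone marrow values. Its log2 change was -0.05 ± 0.63 (SE, adjusted p = 0.974), with a 95% interval of -1.44 to 1.34. The sign turned under median centring, at 0.20, and under quantile normalization, at 0.16. The other Dusp7 probe sets changed by -0.61 and 0.24 in the fit over 27022 probe sets (adjusted p = 0.744 and 0.918). These intervals leave room for changes of more than 2-fold in either direction.

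Among the nuclear, inducible phosphatases, Dusp1 was the gene that fell. It is an immediate-early gene, induced within minutes by growth factors and by stress. Its signals were 630, 555 and 187 in fetal liver MkP, against 1623, 1931 and 4844 in bone marrow MkP. The groups did not overlap, and replicate 3 stood apart in both tissues, lowest in fetal liver and highest in bone marrow. The log2 change was -2.61 ± 0.51 (SE, adjusted p = 0.0121), a 6.11-fold higher level in bone marrow. The call held with each array left out, with changes between -2.93 and -2.06, and was lost without the intensity trend of the variance model (adjusted p = 0.0651, where 0.00749 was the lowest of any alternative).

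The other nuclear phosphatases, Dusp2, Dusp4 and Dusp5, overlapped between tissues. Dusp2, a phosphatase known mainly from blood cells, had 137, 124 and 178 in fetal liver MkP, against 170, 135 and 270 in bone marrow MkP. Its log2 change was -0.34 ± 0.45 (SE, adjusted p = 0.721), with a 95% interval of -1.34 to 0.66. Dusp4, which acts on ERK and JNK, had 73.1, 71.4 and 94.2 in fetal liver MkP, against 86.5, 50.6 and 75.1 in bone marrow MkP.
The range of Dusp4 in fetal liver lay partly within and partly above that in bone marrow, and the change was 0.19 ± 0.50 on the log2 scale (SE, adjusted p = 0.875), with a 95% interval of -0.93 to 1.30. Dusp5, a nuclear phosphatase selective for ERK, had 107, 87.1 and 36.7 in fetal liver MkP, against 29.5, 92.8 and 111 in bone marrow MkP. Bone marrow replicate 1 was below background for Dusp5, and the 2 ranges were nearly the same. Its log2 change was 0.05 ± 0.66 (SE, adjusted p = 0.978), with a 95% interval of -1.41 to 1.51. Signals of Dusp4 and Dusp5 lay at most a few times above the background of 22.2 to 35.1, which limits what could be detected.

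Dusp10, a phosphatase of p38 and JNK that leaves ERK largely alone, had its fetal liver arrays above its bone marrow arrays, without passing the threshold. Its brighter probe set had 129, 167 and 196 in fetal liver MkP, against 89.8, 73.6 and 111 in bone marrow MkP. The groups did not overlap on this probe set, and the log2 change was 0.82 ± 0.46 (SE, adjusted p = 0.323) with a 95% interval of -0.19 to 1.83. The unadjusted limma p of this change was 0.0997. Among the alternatives it was under 0.05 only under quantile normalization (0.0319), under median centring (0.0383) and without the intensity trend (0.0216). In these fits the adjusted p of Dusp10 was 0.169, 0.150 and 0.159. In the other alternatives that tested Dusp10, its unadjusted limma p was 0.0836 to 0.262. Its dimmer probe set had 43.6, 72.0 and 103 in fetal liver MkP, against 8.34, 78.1 and 74.1 in bone marrow MkP, with overlap and a change of 0.80 ± 0.81 (SE, adjusted p = 0.65). Of the 10 genes, Dusp10 had all fetal liver arrays above all bone marrow arrays and 3 genes had the reverse, where 13.8% and 14.2% of all genes did so.

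**Figure D2:**
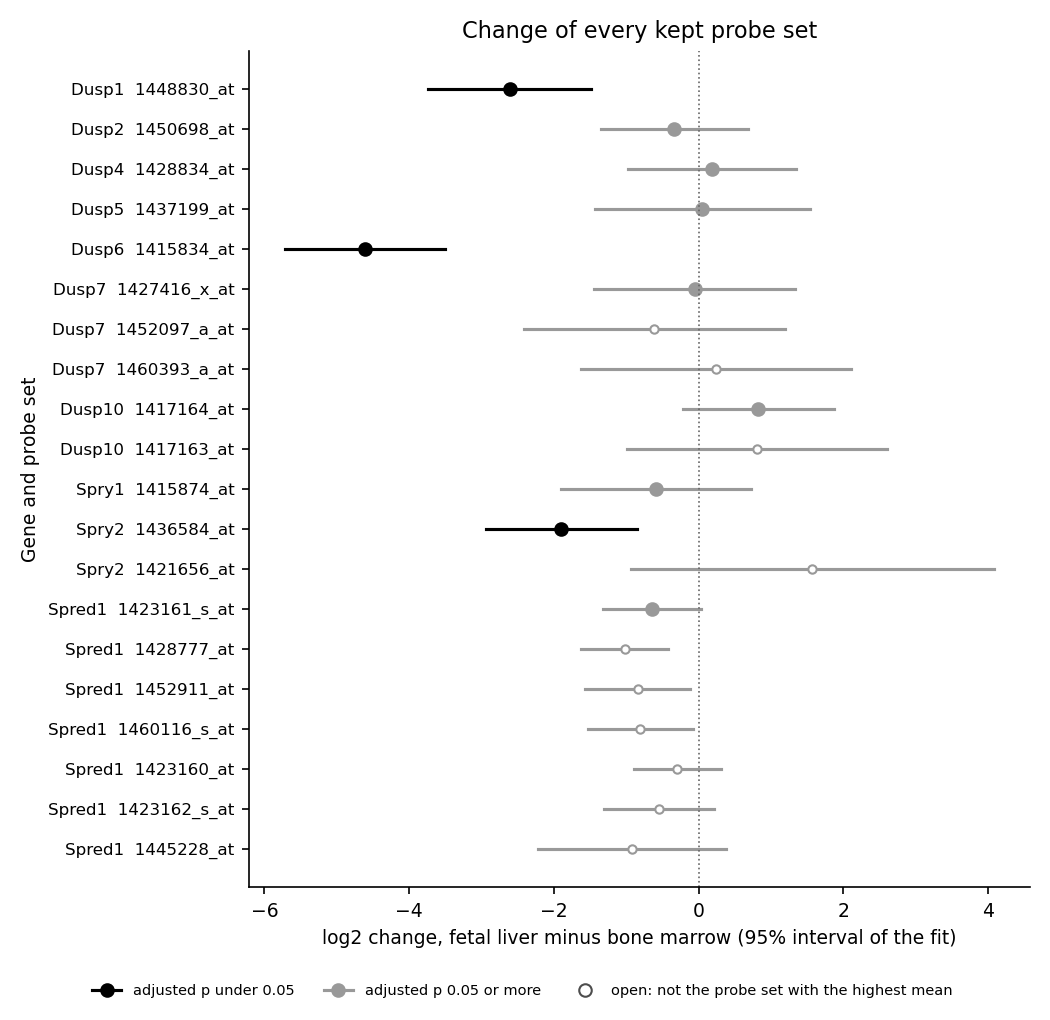
log2 change of fetal liver minus bone marrow for the 20 kept probe sets of the 10 genes, with the 95% interval of the fit over 27022 probe sets. Black marks an adjusted p under 0.05, grey a higher one, and open points are probe sets other than the one with the highest mean of the gene. The 3 black points are Dusp6 at -4.61, Dusp1 at -2.61 and Spry2 1436584_at at -1.90, and all 7 Spred1 probe sets lie left of 0.

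In the fit over all probe sets, 20 of the 21 probe sets were bright enough to be tested, and 3 were past the threshold, all lower in fetal liver. Over the 27022 probe sets, 3.28% were past it and lower and 1.78% past it and higher, 5.06% in all. The calls were the single probe sets of Dusp1 and Dusp6 and one of the pair of Spry2. In this fit the Spry2 call was lost with the replicate number as a block (adjusted p = 0.0593), under median centring (adjusted p = 0.0655), under quantile normalization (adjusted p = 0.0747) and without each array other than bone marrow replicate 1 (adjusted p up to 0.173). Spred1 1428777_at gained a call with the block (adjusted p = 0.0498) and without bone marrow replicate 3 (adjusted p = 0.0488). The genes Dusp1, Dusp2, Dusp4, Dusp5, Dusp6 and Spry1 had 1 probe set each, so no second measurement on the array bears on them.

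Of the Sprouty genes, Spry2 fell on its brighter measurement. Sprouty proteins are feedback inhibitors of RAS and RAF activation downstream of receptor tyrosine kinases. Probe set 1436584_at had 110, 71.1 and 108 in fetal liver MkP, against 249, 583 and 321 in bone marrow MkP. All fetal liver arrays were lower than all bone marrow arrays. The log2 change was -1.90 ± 0.47 (SE, adjusted p = 0.0352), a 3.72-fold higher level in bone marrow.

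The other Spry2 probe set, 1421656_at, did not show this pattern. Its signals were 50.1, 86.5 and 417 in fetal liver MkP, against 27.2, 6.66 and 261 in bone marrow MkP. Replicate 3 was the highest array in both tissues, and bone marrow replicates 1 and 2 were below background. The change of this probe set was 1.57 ± 1.14 (SE, adjusted p = 0.498), with a 95% interval of -0.94 to 4.08. With the mean of both probe sets the change of Spry2 was -0.16 (adjusted p = 0.92). The call was also lost under quantile normalization (adjusted p = 0.0551) and without fetal liver replicates 1, 2 and 3 (adjusted p = 0.0643, 0.137 and 0.0966). It was lost as well without bone marrow replicates 2 and 3 (adjusted p = 0.0924 and 0.0641), and held without bone marrow replicate 1 (adjusted p = 0.0357). It thus held in 11 of 18 alternatives, with an adjusted p of 0.029 to 0.92.

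Spry1, the close relative of Spry2, had 115, 32.0 and 94.2 in fetal liver MkP, against 117, 88.8 and 121 in bone marrow MkP. Fetal liver replicate 2 was low and the other fetal liver arrays lay within the bone marrow range. The log2 change was -0.59 ± 0.58 (SE, adjusted p = 0.61), with a 95% interval of -1.87 to 0.69. It was -0.05 without fetal liver replicate 2.

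Spred1, a membrane protein that brings the RAS-inactivating protein neurofibromin to its target, had 8 probe sets, of which 7 were bright enough to be tested. All 7 had a lower mean in fetal liver, with log2 changes of -1.02 to -0.30, and 0 were past the threshold. Probe sets of a gene are read from the same RNA and are not separate replicates. The probe set with the highest mean had 1006, 715 and 776 in fetal liver MkP, against 1806, 908 and 1313 in bone marrow MkP. Only fetal liver replicate 1 exceeded the lowest bone marrow array. Its log2 change was -0.65 ± 0.30 (SE, adjusted p = 0.239), with a 95% interval of -1.32 to 0.03.
Probe set 1428777_at had 669, 724 and 725 in fetal liver MkP, against 1407, 1868 and 1129 in bone marrow MkP. The groups did not overlap there, and the change was -1.02 ± 0.27 (SE, adjusted p = 0.0552 over all probe sets). With probe sets prone to cross-hybridisation left out, this probe set stood for Spred1 in the gene fit and passed the threshold (adjusted p = 0.0415, where all alternatives together ran up to 0.515). The eighth probe set, 1443652_x_at, was below the filter, with 8.03, 16.5 and 7.35 in fetal liver MkP, against 40.6, 15.1 and 33.8 in bone marrow MkP.

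**Figure D3:**
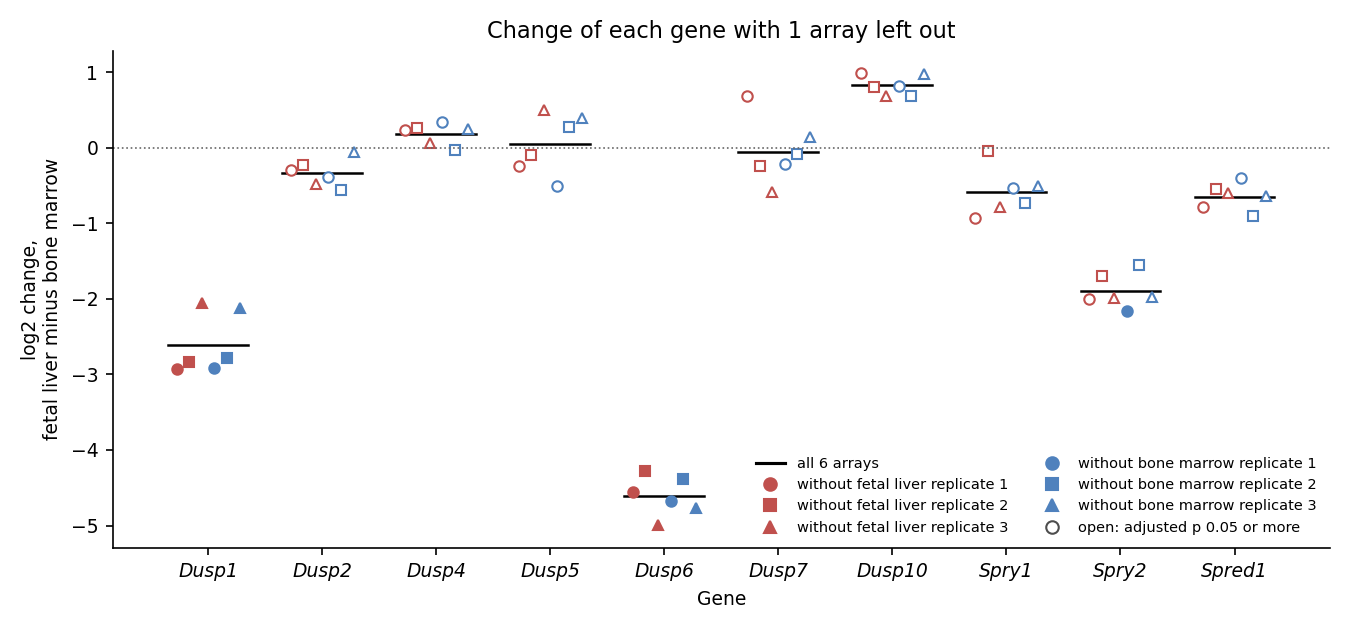
log2 change of fetal liver minus bone marrow of each of the 10 genes with all 6 arrays (black bars) and with 1 array left out (points, coloured by the tissue and shaped by the replicate left out). Filled points are past the threshold and open ones are not. Dusp6 and Dusp1 keep filled points in all 6 fits, Spry2 in 1 of 6, and the other 7 genes in 0.

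Leaving out an array moved Dusp7 and Dusp5 most. Dusp5 ranged from -0.51 to 0.49 and Dusp7 from -0.59 to 0.68, while no such fit gave Dusp6 a change nearer to 0 than -4.28. The number of the 10 genes that fell was 3 without bone marrow replicate 1 and 2 without each other array. It was 2 under quantile normalization, without the intensity trend and with the mean of the probe sets of a gene.

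The genes whose signals followed those of a fallen gene most closely over the 6 arrays were found by the root mean square difference of log2 signals, each centred on its own mean. For Dusp6 they were Dio2, a deiodinase of thyroid hormone, at 0.23 and Mefv, the pyrin gene of myeloid cells, at 0.35. For Dusp1 they were Gria3, a glutamate receptor subunit, at 0.37 and Bex6 at 0.39. For Spry2 they were Tnfrsf1a, a receptor for tumour necrosis factor, at 0.19 and Rnf213, a large ubiquitin ligase, at 0.23. With 3 arrays in each of 2 tissues, this measure mostly reflects the size of the difference between tissues. The 6 genes were each past the threshold themselves and lower in fetal liver, with log2 changes between -5.03 and -1.76.

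The rest of the pathway was read from 9 gene lists, which held 167 genes, of which 128 were measured. Over all genes, 4.76% fell and 3.01% rose in fetal liver, the shares to hold beside the count of each list below. Of the 128 genes, 13 fell and 4 rose, and their median change was -0.13. These counts depended on single arrays: 7 fell and 1 rose without fetal liver replicate 2, 6 fell and 0 rose without fetal liver replicate 3 (limma, with 21 lower and 7 higher at an unadjusted p under 0.05), and 5 fell and 5 rose without bone marrow replicate 3. Without fetal liver replicate 1, 9 fell and 2 rose. The remaining genes of the lists were not analysed here or lay below the filter on dim probe sets. Of the 13 falls, 9 were in the list of transcripts known to respond to ERK, as was 1 of the 4 rises.

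**Figure D4:**
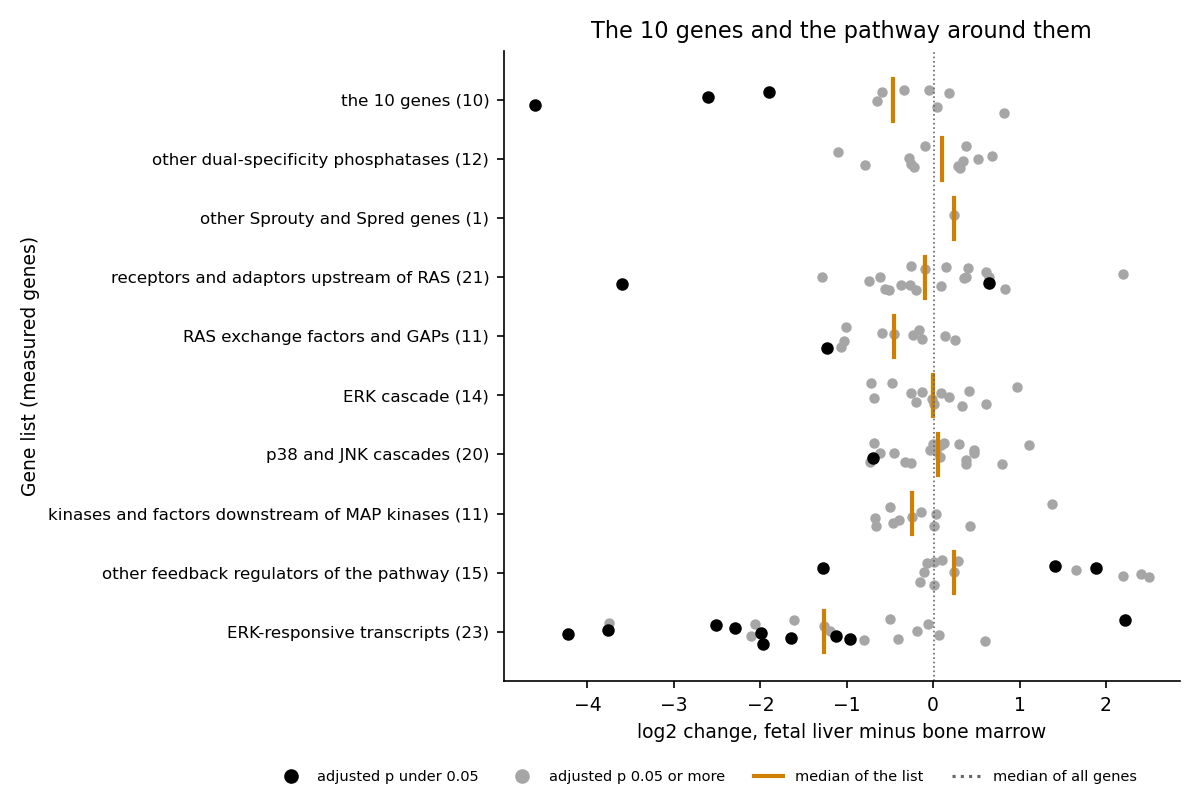
log2 change of fetal liver minus bone marrow of the 10 genes and of the measured genes in 9 pathway lists, 1 point per gene and the number measured in brackets. Black points are past the threshold, grey ones are not, orange bars are list medians and the dotted line is the median of all genes at 0.01. The list of ERK-responsive transcripts has a median of -1.26, and the ERK cascade itself a median of 0.00.

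The relatives of the 10 genes that passed the filter on dim probe sets were not past the threshold. Of 12 measured further dual-specificity and MAP kinase-directed phosphatases, 0 rose and 0 fell in limma, also at an unadjusted p under 0.05, with a median change of 0.10. Without the filter on dim probe sets 18 were measured, of which 1 rose and 0 fell. The smallest p among the 12 belonged to Dusp23, at -1.10 ± 0.59 (SE, adjusted p = 0.309), and Dusp8, a phosphatase of p38 and JNK, at -0.79 ± 0.48 (SE, adjusted p = 0.371). Spred2, the measured relative of Spred1, differed by 0.24 ± 0.31 (SE, adjusted p = 0.704). Its signals of 778, 852 and 950 in fetal liver MkP lay within the range of 533 to 1041 in bone marrow MkP.

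Upstream of RAS, 21 receptors and adaptors were measured, of which 1 fell and 1 rose, with a median change of -0.09. Met, the receptor of hepatocyte growth factor, had 8.50, 32.2 and 56.1 in fetal liver MkP, against 260, 152 and 1039 in bone marrow MkP. It was above background on 2 of 3 fetal liver arrays and all bone marrow arrays. It changed by -3.60 ± 0.81 (SE, adjusted p = 0.0233), and the call was lost without fetal liver replicates 1 and 2 (adjusted p = 0.0688 and 0.0567) and without bone marrow replicate 3 (adjusted p = 0.0678; 0.00716 to 0.069 over all alternatives). Ptpn11, the phosphatase SHP2 that carries receptor signals to RAS, had 8017, 6608 and 7346 in fetal liver MkP, against 5413, 4541 and 4162 in bone marrow MkP. Its change of 0.64 ± 0.17 (SE) lay at the threshold (adjusted p = 0.05) and passed it in 9 of 18 alternatives (adjusted p = 0.0127 to 0.182) and in 1 of the 6 that leave out an array, that without bone marrow replicate 1. Kit, the receptor of stem cell factor and a gene of the sort, had 1130, 864 and 618 in fetal liver MkP, against 1578, 1526 and 791 in bone marrow MkP, with overlap (-0.55 ± 0.34, SE, adjusted p = 0.384).

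The members of the ERK cascade itself gave no call. Of 14 measured genes, 7 with a negative change, 0 rose and 0 fell in limma, while at an unadjusted p under 0.05 there were 1 higher and 1 lower. These were Nras, a RAS gene, at 0.61 ± 0.22 (SE, adjusted p = 0.125, with alternatives from 0.0262, under median centring, up to 0.367) and Iqgap1, a scaffold of the cascade, at -0.71 ± 0.29 (SE, adjusted p = 0.167). Among 20 genes of the p38 and JNK cascades 1 fell, Mapkapk3, a kinase activated by p38, at -0.70 ± 0.16 (SE, adjusted p = 0.0258). Leaving out single arrays kept this call 2 times in 6, for fetal liver replicate 1 and bone marrow replicate 2, and the adjusted p over all alternatives was 0.00918 to 0.137. Of 11 measured RAS exchange factors and RAS-inactivating proteins 1 fell, Rasal3, at -1.23 ± 0.30 (SE, adjusted p = 0.0328), and its call likewise held 2 times in 6, for fetal liver replicate 1 and bone marrow replicate 1 (0.03 to 0.142 over all alternatives). Among 11 kinases and factors downstream of MAP kinases 0 were past the threshold in limma, and Elk3 and Elk4, ETS factors phosphorylated by ERK, had the smallest p (-0.67 ± 0.26 and -0.50 ± 0.20, SE, adjusted p = 0.159 and 0.168).

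Of 15 other feedback regulators measured, 2 rose and 1 fell, where 7.77% of all genes were past the threshold in either direction. Their median change was 0.24. In limma 0 rose and 0 fell without fetal liver replicate 2, and likewise without fetal liver replicate 3. At an unadjusted p under 0.05, 3 were higher and 1 lower in each of these fits. Socs2, an inhibitor of cytokine receptor signalling that is induced by STAT5, had 322, 211 and 416 in fetal liver MkP, against 49.8, 85.5 and 121 in bone marrow MkP. It changed by 1.88 ± 0.50 (SE, adjusted p = 0.0444), and held without bone marrow replicate 3 and not without any other array. The adaptor Dok2, which recruits the RAS-inactivating protein RASA1, had 698, 1033 and 1073 in fetal liver MkP, against 312, 319 and 406 in bone marrow MkP. Its change of 1.41 ± 0.31 (SE, adjusted p = 0.0224) was lost without fetal liver replicates 2 and 3 (adjusted p = 0.124 and 0.126). Cblb, a ubiquitin ligase of activated receptors, changed by -1.28 ± 0.34 (SE, adjusted p = 0.0443), a call that was lost without each of the 6 arrays (adjusted p = 0.0522 to 0.174) and that held in 6 of 18 alternatives.

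Of 23 measured transcripts known to respond to ERK, 9 fell and 1 rose, with a median of -1.26. The count of 9 was 5 without fetal liver replicate 3 and 5 without bone marrow replicate 3, and ran up to 11 without bone marrow replicate 2. Fos, a subunit of AP-1, had 232, 140 and 46.7 in fetal liver MkP, against 1115, 1936 and 4985 in bone marrow MkP (-4.22 ± 0.63, SE, adjusted p = 0.00306). As for Dusp1, replicate 3 was the lowest fetal liver array and the highest bone marrow array. Egr1, an early zinc finger factor, had 1218, 365 and 374 in fetal liver MkP, against 4006, 3103 and 2518 in bone marrow MkP (-2.51 ± 0.43, SE, adjusted p = 0.00642). Nr4a1, an early nuclear receptor that was above background on 1 of 3 fetal liver arrays, and Jun changed by -3.77 ± 0.71 and -2.30 ± 0.49 (SE, adjusted p = 0.00993 and 0.0188), and Jun lost its call without bone marrow replicates 1 and 3 (adjusted p = 0.0582 and 0.0626).

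The gene that rose in this list was Phlda1, which was named after its value was seen, with 534, 299 and 449 in fetal liver MkP, against 98.9, 55.8 and 119 in bone marrow MkP. Its change of 2.22 ± 0.46 (SE, adjusted p = 0.0161) was lost without fetal liver replicates 1 and 3 (adjusted p = 0.0649 and 0.0844). Etv5 and Etv4, ETS factors that are often induced together with Dusp6 and Sprouty genes, were looked up after their values were seen. Etv5 had 169, 243 and 275 in fetal liver MkP, against 398, 1332 and 112 in bone marrow MkP. The bone marrow arrays spread on both sides of the fetal liver ones, and the change of -0.80 ± 0.73 was not past the threshold (SE, adjusted p = 0.576). Etv4 differed by 0.07 ± 0.80 (SE, adjusted p = 0.973).

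**Figure D5:**
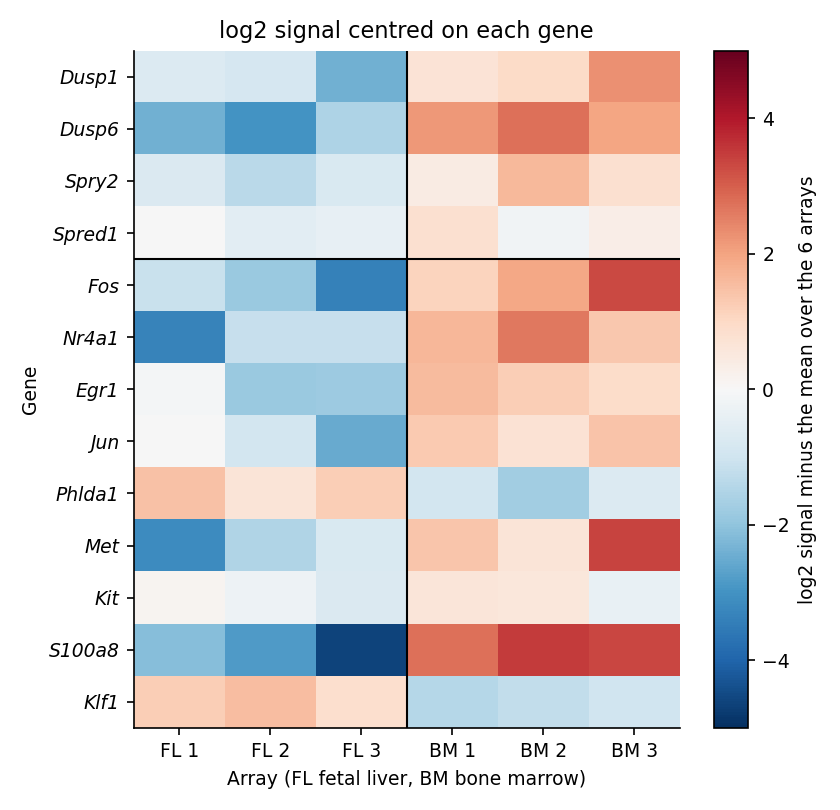
log2 signal of 4 of the 10 genes (above the line) and of 9 other genes, minus the mean of each gene over the 6 arrays, with fetal liver arrays left and bone marrow arrays right. Red is above and blue below the mean of the gene. Dusp1, Dusp6 and Spry2 share their sides with Fos, Nr4a1, Egr1, Jun, Met and S100a8, whereas Phlda1 and Klf1 have the opposite sides.

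Markers of other blood cells differed between the same arrays. All 12 measured granulocyte and monocyte markers fell in fetal liver, and their summed signal was 4916 to 7159 on fetal liver arrays, against 47778 to 73521 on bone marrow arrays. None was listed at 0, and 2 of the 12 were above background on no fetal liver array. S100a8, an alarmin of neutrophils and monocytes, had 160, 97.3 and 26.2 in fetal liver MkP, against 4889, 8106 and 7356 in bone marrow MkP, and Mpo, the myeloperoxidase of granules and the brightest of these markers, had 2550, 5004 and 3121, against 19048, 8804 and 24686. Of the mast cell, basophil and eosinophil markers 3 of 4 fell, with sums of 108 to 309 on fetal liver arrays and 1332 to 2810 on bone marrow arrays. Of the macrophage markers 2 of 4 fell, with sums of 51.8 to 142 and 342 to 1145 in the same order, and of the lymphocyte markers 1 of 5, with sums of 489 to 650 and 1845 to 2434. The macrophage count was 1 without fetal liver replicate 1, fetal liver replicate 3 or bone marrow replicate 3, and the lymphocyte count 2 without bone marrow replicate 3.
Of 8 erythroid markers 4 rose, among them Klf1, with sums of 11680 to 24598 on fetal liver arrays and 4973 to 9111 on bone marrow arrays. That count was 2 without fetal liver replicate 2 and 2 without fetal liver replicate 3, and Klf1 rose with each array left out. Of 5 hepatocyte markers 1 rose, with sums of 605 to 3644 and 223 to 624 in that order. The hepatocyte call, Apoa1, was past the threshold in 8 of 17 alternatives and, of the fits that leave out an array, only in that without bone marrow replicate 2. Alb, the albumin gene of hepatocytes, differed by 2.05 ± 0.83 (SE, adjusted p = 0.17). Of 9 megakaryocyte progenitor markers 0 were past the threshold in limma, and Itga2b, which encodes CD41, and Slamf1, which encodes CD150, were above background on all 6 arrays. The part of other cell types in the lower signals of Dusp1, Dusp6 and Spry2 was not tested.

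The arrays differed in a few general measures as well. The median signal was 62.8 to 65.5 on fetal liver arrays, against 74.1 to 80.2 on bone marrow arrays, and the ratio of 5′ to 3′ signal of Actb was 0.892 to 1.02, against 1.06 to 1.13 (exact permutation p = 0.1 for each, two-sided, the smallest that 3 against 3 allows; 0.2 after adjustment over the 4 measures compared). The same ratio for Gapdh was 0.109 to 0.449 on fetal liver arrays, against 0.099 to 0.303 on bone marrow arrays (exact permutation p = 0.3, adjusted 0.3). The share of probe sets above background was 59.7% to 63.5%, against 62.3% to 68.8% (exact permutation p = 0.2, adjusted 0.267). The part of RNA quality in the changes of the 10 genes was not tested. Median centring of the arrays raised the median over all genes by 0.25 on the log2 scale. Under it Dusp6, Dusp1 and Spry2 still fell, with changes of -4.36, -2.36 and -1.64 on the log2 scale (adjusted p = 6.63e-04, 0.0140 and 0.049).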

How the data were processed

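RNA of 6 sorted samples was hybridised to Affymetrix mouse expression arrays, 1 array per sample. The deposited table holds 1 intensity per probe set and array, made by the authors as a MAS5 signal (per the submitters' processing notes). For its version and scaling target, the sources used here give nothing. In the values, the mean without the top and bottom 2% was 500 on every array.

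Of 45101 probe sets, 64 controls were left out. The 27 bacterial controls set the background, the highest of their signals on each array. Signals were not normalized further and were taken as log2(signal + 2.87), the offset being the 10th percentile. The 27022 probe sets above the 40th percentile of mean log2 signal were kept. Probe sets were named from the platform annotation, in which 34945 had 1 gene symbol, 932 several and 9160 none, and the 22408 kept ones with 1 symbol gave 11625 genes, each by its probe set with the highest mean. Fetal liver was compared with bone marrow by limma 3.58.1 in R 4.3.3 (lmFit, and eBayes whose variance prior followed the intensity). Benjamini-Hochberg adjustment ran over all genes, or over all kept probe sets in a second fit. A gene was past the threshold at an adjusted p under 0.05. Every adjusted p of a gene or probe set is from limma. Those of the array measures are exact permutation p-values with Benjamini-Hochberg adjustment. The fit was also run on simulated data with independent noise for each gene, the outcome of which is not given here. Those data held no deviation shared by the genes of an array.

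The genes and lists were chosen with earlier results of these data known. All probe sets of the 10 genes are described. The other genes named were up to 4 of each pathway list, those that changed most among the ones past the threshold or else the 2 of smallest p, Kit, Egr1, Fos and Jun, the 2 genes most alike in pattern to each fallen gene, and defining or most abundant markers. Some genes of the lists are not analysed here. Replicate numbers are shared by both tissues, but the labels do not say that a number pairs samples, so the numbers were not taken as pairs. Deviations of same-numbered arrays correlated at 0.15, -0.02 and 0.08, and those of the other pairs at -0.15 to 0.10. With 3 arrays per tissue, these correlations cannot decide whether the samples were paired. The alternatives were other offsets, filters, scalings, ways to join probe sets, no intensity trend, a replicate block and each array left out. With 3 arrays per tissue, the number of arrays limits the precision.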

Additional observations from a re-analysis of the deposited data

How the results depend on the processing

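Over all genes, 350 rose and 553 fell in fetal liver. With 1 array left out these counts were 117 to 313 and 316 to 439. Genes higher in fetal liver numbered 897 under median centring and 166 without the intensity trend, and 32.8% of all calls were lower in fetal liver under median centring, against 61.2% without it. The change of Dusp7 turned to 0.16 under quantile normalization and to 0.20 under median centring. With arrays left out it was -0.59 to 0.68 for Dusp7, -0.51 to 0.49 for Dusp5 and -0.030 to 0.34 for Dusp4. The cause of these moves was not tested, beyond the smaller number of arrays in the fits that leave one out. With the replicate number as a block, the calls were 522 genes higher and 688 lower in fetal liver, and the same 3 of the 10 genes fell. In the fit over probe sets the block left 3 calls but put a Spred1 probe set (adjusted p = 0.0498) in place of the Spry2 one (adjusted p = 0.0593). The number of the 10 genes that fell was 2 to 4 over all alternatives, and 4 only where Spred1 joined them. Signals close to the highest bacterial control limit what can be said of Dusp4, Dusp5 and Dusp6 in fetal liver.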
